A study of Mus musculus with 8 samples.

Results

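The 6 genes Il23r, Il1r1, Il12rb1, Il6ra, Il6st and Il17re encode chains of cytokine receptors. The first 5 bind or transmit IL-23, IL-1 and IL-6, which drive Th17 cells, and Il17re encodes a receptor chain for IL-17C. They were taken by symbol from the 31053 gene rows of the deposited tables, where each of the 6 has 1 row, and were followed across cell types and the 4 groups of libraries. Cells came from the colonic lamina propria, the connective tissue under the gut epithelium, of C57BL/6 mice aged 10 to 12 weeks, after enrichment of CD4+ T cells with a magnetic kit. The groups were wildtype untreated, mutant untreated, wildtype DSS and mutant DSS, with 2 libraries each, which the series describes as biological replicates. The mutant is named RORgtS182A in the series' text and S203AKI in the sample titles. DSS (dextran sulfate sodium, which injures the colonic epithelium) was given at 2% in drinking water for 7 days, followed by 3 days of water, and all mice were taken on day 10. An amino acid substitution cannot be checked from the level of the gene's 3' counts.

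Th17 cells make IL-17 and IL-22 at mucosal surfaces. IL-6 acts through its receptor Il6ra and the shared signal chain Il6st (gp130), starts the Th17 programme and activates STAT3. IL-23 acts through Il23r paired with Il12rb1, a chain shared with the IL-12 receptor, and IL-1 acts through Il1r1. These last signals sustain Th17 cells, and group 3 innate lymphoid cells (ILC3) respond to IL-23 and IL-1 as well.

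Each library held 34497509 to 46960005 unique molecular identifiers (UMIs, counted molecules) over 10563 to 16133 barcodes. The authors' list of 27420 cells held at least 1 Cd4 UMI in each cell, and 20765 of them fell in T cell clusters, the CD4 T cells here. Of 99487 distinct barcodes, 1176 occurred in more than 1 library. Listed clusters of other cell types carried T cell transcripts, so levels in non-T cells were taken from the 69301 barcodes outside the list that passed the same limits on genes and mitochondrial UMIs. Cell types were named from marker genes after clustering without the 6 receptors. A cluster of 3808 listed T cells led by Serpinb1a and Mcpt4 was left unnamed. Its best score was for Th17 markers, at a mean log2 ratio of 0.933, below the limit of 1 for a name. Il17a was among its leading genes. Values for Th17-like cells at the main clustering do not include this cluster. Doublets were not called or removed. Levels are in CPM, a gene's UMIs relative to all UMIs of the cells of a type in a library, so they do not depend on gene length in 3' libraries. A mean over all libraries joins untreated and DSS ones.

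All 6 genes have a position in the GENCODE annotation of GRCm38. Il23r lies on chromosome 6 from 67422932 to 67491855 on the minus strand and has 11 exons in its annotated transcript. Il17re lies on the same chromosome from 113458484 to 113470758 on the plus strand. Il1r1 (chromosome 1, 40225080 to 40317257) and Il6st (chromosome 13, 112464070 to 112510086) lie on the plus strand. Il12rb1 lies on chromosome 8 from 70808449 to 70821424 on the plus strand, and Il6ra on chromosome 3 from 89864059 to 89913196 on the minus strand.

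The promoter of Il23r is shown because it was the 1 member called after DSS among the listed Th17-like cells, a call that leaving out any 1 of 6 libraries ended, and because AGGTCA, a motif bound by several nuclear receptors, occurs in it. The sequence is the 250 bases before the RefSeq gene start on GRCm38.p6, chr6:67491856-67492105, minus strand, with matches to AGGTCA on either strand in capitals.
Il23r promoter: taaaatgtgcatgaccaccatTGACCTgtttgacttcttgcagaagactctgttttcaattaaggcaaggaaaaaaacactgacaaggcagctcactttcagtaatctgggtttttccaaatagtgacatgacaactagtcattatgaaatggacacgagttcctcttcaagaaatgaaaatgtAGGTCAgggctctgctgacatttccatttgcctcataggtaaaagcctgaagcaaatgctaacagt
It holds 2 matches, beginning 229 and 66 bases before the start. Promoters were found for 5 of the 6 genes. AGGTCA was absent from the same window of the others (Il1r1 has 2 starts), and of 32851 mouse promoters of this length 14.0% hold it. TTCNNNGAA, a STAT site, and TGACTCA, an AP-1 site, were in none of the members' windows, against 7.02% and 4.46% of all promoters. These are matches of letters in a window and not measured binding.

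Il23r, the specific chain of the IL-23 receptor, was highest in ILC3-like cells at 69.8 CPM ± 24.0 (SD, n = 8 libraries) and next in Th17-like cells at 41.5 CPM ± 19.3 on the authors' list and 48.2 CPM ± 21.1 outside it. The ranges of the ILC3-like and Th17-like libraries overlapped. Treg-like cells (regulatory T cells) stood at 18.8 CPM ± 9.33 and Tfh-like cells (follicular helper T cells, named only outside the list) at 9.68 CPM ± 3.66. With every cell thinned to 1000 UMIs, 4.64% ± 2.51 of Th17-like cells held an Il23r UMI, against 0.077% ± 0.110 of B-like cells. Without thinning the same shares were 12.0% and 0.161%. B-like cells, which should lack the receptor, serve here as the background.

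Il17re had the same order over ILC3-like, Th17-like and Treg-like cells. ILC3-like cells stood at 33.3 CPM ± 11.03 and Th17-like cells at 29.6 CPM ± 7.78, which did not differ beyond their spread, while Treg-like cells stood at 5.33 CPM ± 1.68. Il1r1, the signalling receptor of IL-1, was spread over more cell types. Over all libraries it stood at 160 CPM ± 39.3 in ILC3-like cells, 151 CPM ± 78.4 in fibroblast-like cells and 124 CPM ± 38.5 in Th17-like cells. The fibroblast-like mean joins untreated libraries at 78.3 CPM ± 9.09 and DSS libraries at 223 CPM ± 14.5 (n = 4 each), which do not overlap, so its place differs between conditions. In untreated libraries it was below every ILC3-like library (150.8 to 163 CPM) and every Th17-like library (96.5 to 177 CPM). After DSS it was above every Th17-like library (71.8 to 148 CPM) and its range overlapped that of the ILC3-like ones (106 to 231 CPM). The next places also differed between conditions. Smooth muscle or pericyte-like cells had 83.9 CPM ± 60.5 over all libraries, from 30.7 CPM ± 0.539 in wildtype and 37.3 CPM ± 12.6 in mutant untreated libraries, and 124 CPM ± 45.2 and 144 CPM ± 55.0 after DSS (n = 2 each). Endothelial-like cells had 49.95 CPM ± 4.71 untreated and 81.6 CPM ± 5.84 after DSS, and Treg-like cells 46.0 CPM ± 27.1 and 72.2 CPM ± 9.04 (n = 4 each). Tfh-like cells stood at 58.0 CPM ± 15.2 over all libraries.

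Il12rb1, the chain that IL-23 and IL-12 receptors share, was highest in Treg-like cells at 36.1 CPM ± 8.47, then in proliferating T cells at 29.3 CPM ± 7.68. Th17-like cells stood at 19.9 CPM ± 5.64 and Th1-like cells at 18.0 CPM ± 5.13, and those ranges overlapped. The pair of chains that form the IL-23 receptor therefore had different highest populations.

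The IL-6 receptor chains were low in Th17-like cells. Il6ra, which binds IL-6, was highest in neutrophil-like cells at 88.0 CPM ± 16.6 (4 libraries) and macrophage-like cells at 73.3 CPM ± 13.9. Among listed CD4 T cells it was highest in a cluster led by Hbb-bs, at 46.2 CPM ± 10.6, and in naive or central memory T-like cells, at 37.6 CPM ± 10.5. The Hbb-bs-led cluster was left unnamed, since 4 haemoglobin genes and the seminal genes Pbsn and Tgm4 were among its 10 leading genes. Its best score was for follicular helper markers, of which Sostdc1 was among those 10. Outside the list naive or central memory T-like cells stood at 51.4 CPM ± 9.15 and Tfh-like cells at 43.7 CPM ± 11.1, with ranges that overlapped. In Th17-like cells 0.373% ± 0.305 of thinned cells held an Il6ra UMI, against 4.33% ± 1.12 of Tfh-like cells and 2.45% ± 0.872 of B-like cells. Il6st, the signal chain of the whole IL-6 family, was highest in endothelial-like cells at 351 CPM ± 33.2, glia-like cells at 302 CPM ± 104 (7 libraries) and fibroblast-like cells at 255 CPM ± 48.4. Among T cells it was highest in Treg-like cells, at 173 CPM ± 28.3, where the lowest library (149 CPM) was above every Th17-like library, of which the highest was at 39.4 CPM.

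**Figure D1:**
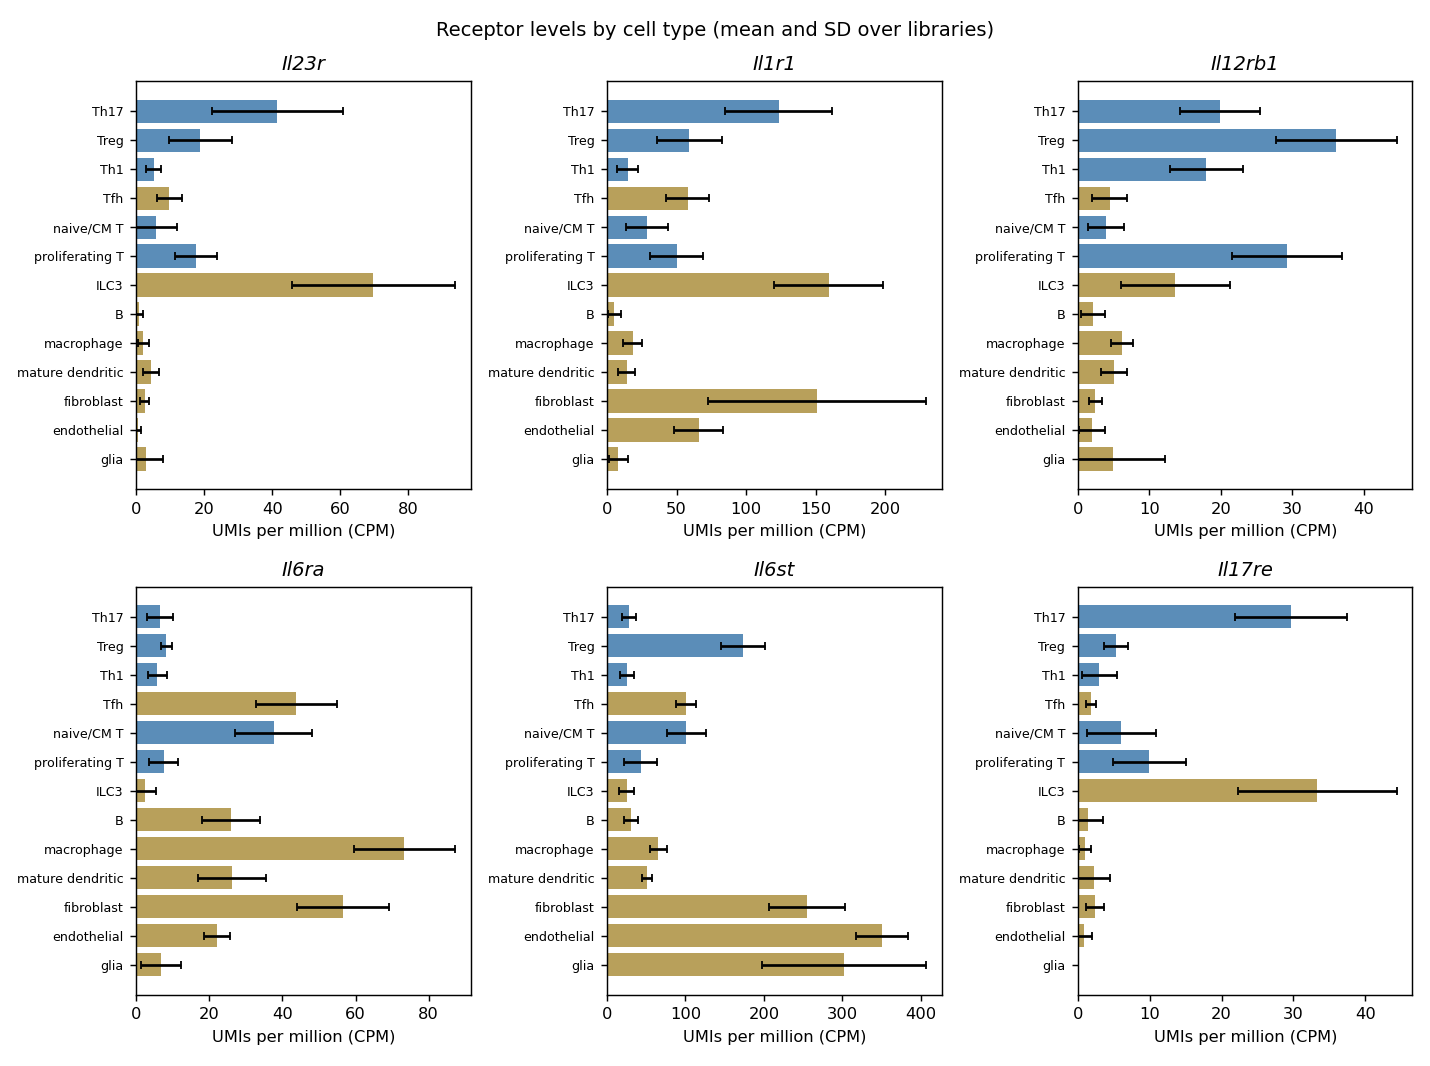
Level of each receptor gene (horizontal axis, CPM) in 13 cell types (vertical axis). Bars are means over untreated and DSS libraries together and lines are SD. Blue bars are cells on the authors' list and tan bars are barcodes outside it. Il23r and Il17re are highest in ILC3-like and Th17-like cells, Il12rb1 in Treg-like cells, and Il6st in endothelial-like cells.

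Across 29 cell populations, named types and unnamed clusters, genes with a profile close to that of a member were ranked by Pearson's r of log2(CPM + 1), as a description. Il17re was most like Prelid2 (r = 0.884). Il12rb1 was most like Gzmb (r = 0.914), the gene of granzyme B, and Il6st most like Lrrc32 (r = 0.865). Il23r was most like Olfr60 (r = 0.943) and Il1r1 most like Synj2 (r = 0.820). Among the members, Il23r and Il12rb1 had r = 0.826, Il23r and Il1r1 r = 0.710, Il23r and Il17re r = 0.6675, and Il6ra and Il6st r = 0.384. The populations share libraries and differ in depth.

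In Th17-like cells, DSS went with a lower level of Il23r. The untreated libraries had 49.0 and 42.7 CPM in wildtype and 61.0 and 67.9 CPM in the mutant. After DSS the libraries had 49.4 and 13.9 CPM in wildtype and 28.2 and 20.1 CPM in the mutant. The ranges overlapped only through the first wildtype DSS library. The second wildtype DSS library held the fewest Th17-like cells (165) and UMIs (431919). Th17-like cells made up 8.49% to 27.2% of CD4 T cells in untreated libraries and 5.72% to 27.6% after DSS. Averaged over both genotypes Il23r fell by 0.81 on the log2 scale (SE 0.23, adjusted p = 0.0429 by edgeR's quasi-likelihood test over 7307 genes), and 4.48% of all genes tested were called in this comparison. Of the 5 members tested, this was the 1 called. Without the first wildtype DSS library the log2 change was -1.56 (adjusted p = 0.00240), and leaving out any 1 of 6 other libraries ended the call, with adjusted p from 0.0557 to 0.208. At a coarser clustering (resolution 0.5) the difference was -0.64 (adjusted p = 0.0765), where 4.82% of genes were called. DESeq2 gave no adjusted p for it. In wildtype alone the log2 difference was -0.22 (SE 0.33, adjusted p = 0.878). The effect of DSS differed between genotypes by -1.18, mutant minus wildtype (SE 0.45, unadjusted p = 0.0159, adjusted p = 0.999 by edgeR), and by 0.31 (adjusted p = 0.998) without the first wildtype DSS library. In the Th17-like barcodes outside the list, from the same mice, Il23r fell by 0.79 (adjusted p = 0.0166, with 12.1% of genes called).

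Its partner chain Il12rb1 had 21.2, 25.4, 27.3 and 21.5 CPM in the untreated Th17-like libraries and 21.2, 18.5, 10.9 and 13.0 CPM after DSS, wildtype before mutant. The log2 difference was -0.64 (SE 0.23) and did not pass adjustment (edgeR adjusted p = 0.126). Outside the list it fell by 0.75 (edgeR adjusted p = 0.0481). In wildtype alone the 2 sets of cells differed. Il12rb1 had -1.54 outside the list (SE 0.33, edgeR adjusted p = 0.0671) and -0.22 on it (SE 0.33, edgeR adjusted p = 0.878). Averaged over both genotypes, Il1r1, Il6st and Il17re had log2 differences of -0.16, 0.22 and 0.33 in listed Th17-like cells, with edgeR adjusted p from 0.408 to 0.655. Il6ra was too low to be tested there. The 5 plasma cell markers, all detected, summed to 266 to 717 CPM in the untreated Th17-like libraries and 288 to 2343 CPM after DSS. The 5 T cell markers, all detected, summed to 2801 to 3390 CPM and 2202 to 2867 CPM. The 7 ILC2 markers summed to 588 to 1012 CPM (median 695) and 987 to 1461 CPM (median 1257), with Hs3st1 at 0 after DSS. The ILC2 list includes Areg, which was also a leading gene of the Th17-like cluster. The ranges of all 3 lists overlapped, and their part in the result was not tested.

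**Figure D2:**
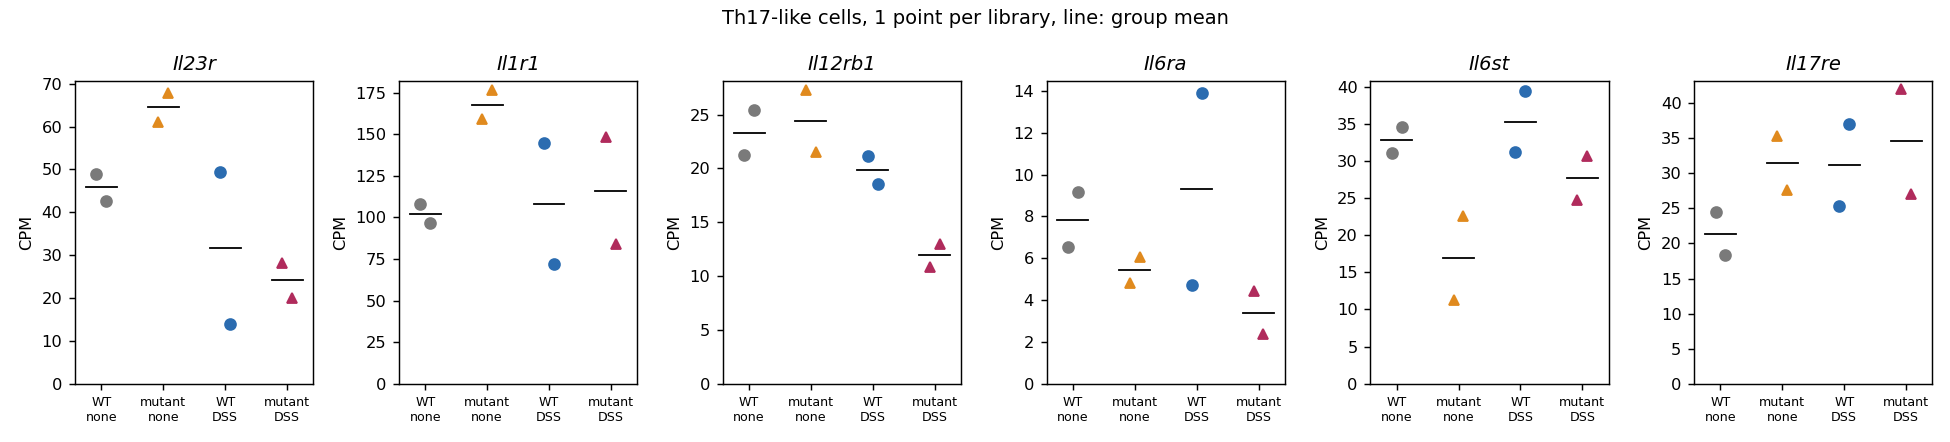
Level of each receptor (vertical axis, CPM) in Th17-like cells, by group on the horizontal axis. Each point is 1 library, circles are wildtype, triangles are mutant and lines are group means. Il23r is at 42.7 to 67.9 CPM in untreated libraries and at 13.9 to 49.4 CPM after DSS.

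The listed Th17-like cells were also divided by whether they held an Il17a UMI, after thinning to 1000 UMIs. Il1r1 stood at 178 CPM ± 67.3 in 1948 cells with Il17a and 104 CPM ± 56.1 in 902 cells without (n = 8 libraries). It was higher with Il17a in 7 of 8 libraries, by 0.98 ± 0.97 (SD) on the log2(CPM + 5) scale (exact two-sided sign-flip permutation p = 0.0234, adjusted over the 6 genes 0.141). Il17re was higher in 7 of 8 libraries by 0.80 ± 1.10 (exact permutation p = 0.0547, adjusted 0.164). The other genes had adjusted values from 0.531 to 0.719, and no member passed adjustment at this depth. With thinning to 500 UMIs Il1r1 passed, at 1.57 ± 1.76 and higher in 8 of 8 libraries (exact permutation p = 0.0078125, the smallest possible, adjusted 0.0469). Without thinning, where the depth of the cells is not held equal, Il23r, Il1r1 and Il17re passed (exact permutation, adjusted p = 0.0234, 0.0234 and 0.0469).

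In Treg-like cells, Il1r1 rose after DSS. Untreated libraries had 32.3 and 33.4 CPM in wildtype and 31.6 and 86.6 CPM in the mutant, against 68.0 and 75.7 CPM in wildtype and 82.9 and 62.2 CPM in the mutant after DSS. Of the 4 untreated libraries 3 were below every DSS library, and the second mutant untreated library was above all of them. Il1r1 rose by 0.69 (SE 0.21, edgeR adjusted p = 0.0481), the 1 member called of 5 tested, against 9.44% of all 8108 genes. Without the second mutant untreated library the change was 1.11 (adjusted p = 0.00679), and without the first it was 0.41 (adjusted p = 0.183). Leaving out either wildtype untreated library or the second wildtype DSS library also ended the call (adjusted p = 0.138, 0.168 and 0.0849). DESeq2 called no member here (adjusted p = 0.0914 for Il1r1), against 5.88% of genes with an adjusted p. Il6st, highest here among T cells, differed by 0.15 (SE 0.13, edgeR adjusted p = 0.474). Over the same libraries the 5 T cell markers, all detected, summed to 2959 to 3528 CPM untreated and 2456 to 2883 CPM after DSS. The 4 CD8 T cell markers summed to 783 to 1052 CPM and 448 to 762 CPM, with Cd8a at 0 in the untreated libraries. That list includes Gzmb, which was also a leading gene of a Treg-like cluster. The 5 mature dendritic cell markers summed to 120.6 to 186 CPM untreated, with Fscn1 at 0, and 196 to 273 CPM after DSS. The 5 follicular helper markers, all detected, summed to 123 to 161.7 CPM and 161.8 to 212 CPM. The 5 plasma cell markers, all detected, summed to 324 to 964 CPM and 367 to 2339 CPM. The part of these markers in the result was not tested.

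The 2 Treg-like clusters differed in their values. In the cluster led by Foxp3, with Il10 and Gzmb among its leading genes, Il1r1 rose by 0.91 (SE 0.23, edgeR adjusted p = 0.0186, 9.57% of genes called). In the cluster led by Il1rl1, the receptor of IL-33, the log2 difference was -0.06 (edgeR adjusted p = 0.958, 2.44% of genes called). The difference between the clusters was not tested. In Treg-like barcodes outside the list Il1r1 rose by 0.88 (adjusted p = 0.00317) and Il6st by 0.42 (adjusted p = 0.0482), with 15.4% of genes called.

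Over all CD4 T cells Il6st rose after DSS. The untreated libraries had 56.1, 49.9, 61.3 and 57.7 CPM and the DSS libraries 76.5, 117.8, 68.2 and 88.7 CPM, wildtype before mutant, and the ranges did not overlap. The log2 change was 0.56 (SE 0.14, edgeR adjusted p = 0.0223), the 1 member called of 6, against 18.2% of 11040 genes. Treg-like cells, where Il6st was highest among T cells, made up 13.5% ± 2.08 of CD4 T cells in untreated libraries and 26.2% ± 3.20 after DSS (SD, n = 4 each). Without the Treg-like cells the log2 difference of Il6st in wildtype mice alone was 0.59 (SE 0.16, edgeR adjusted p = 0.180), against 0.80 with them. Averaged over both genotypes it was 0.24 without them (SE 0.11, edgeR adjusted p = 0.171), and within the listed Treg-like cells it was 0.15, as given above. Leaving out any 1 of 6 libraries also ended the call, with adjusted p up to 0.114. In the same libraries the 5 T cell markers, all detected, summed to 2849 to 3314 CPM untreated and 2307 to 2775 CPM after DSS. The 5 mature dendritic cell markers, all detected, summed to 118 to 137 CPM and 145 to 235 CPM, and the 5 plasma cell markers, all detected, to 399 to 858 CPM and 383 to 2297 CPM. The 5 neutrophil markers summed to 0.456 to 1.28 CPM untreated, with Retnlg at 0, and 3.46 to 11.9 CPM after DSS. The part of these markers in the result was not tested.

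Fibroblast-like cells gave the largest log2 change of any member among the 7 populations tested. Il1r1 stood at 80.3 and 68.0 CPM in wildtype untreated libraries and 75.2 and 89.6 CPM in mutant ones, against 237 and 204 CPM in wildtype and 231 and 221 CPM in the mutant after DSS. The groups were far apart. Il1r1 rose by 1.60 (SE 0.12, edgeR adjusted p = 0.000172), and the call held in every alternative run. Il6st rose from 211 CPM ± 13.7 to 300 CPM ± 7.71 (log2 change 0.60, SE 0.11, adjusted p = 0.0105), and Il6ra fell from 67.9 CPM ± 3.72 to 45.3 CPM ± 3.48 (log2 change -0.48, SE 0.13, adjusted p = 0.0354). These 3 were the members called of 6, against 16.7% of 12982 genes. Leaving out 1 library ended the call of Il6st for 4 of the 8 libraries (adjusted p up to 0.0649) and that of Il6ra for 6 of the 8 (up to 0.140), with the direction kept. DESeq2 called Il1r1 and Il6st and not Il6ra (adjusted p = 0.0538), against 10.7% of genes with an adjusted p. The other 3 were at 0.19 to 4.55 CPM in every library.

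The mix of fibroblast-like clusters differed between conditions. The cluster led by Clec3b and Dcn held 51.4% ± 2.96 of these cells in untreated libraries and 9.90% ± 7.40 after DSS, and the cluster led by Cxcl13 and Il11 held 6.10% ± 2.02 and 52.5% ± 22.2. Within each of the 4 clusters Il1r1 rose, by 1.31 (Clec3b and Dcn), 2.12 (Cxcl13 and Il11), 1.05 (Ogn and Rbp4) and 2.21 (Dcn and Lum). The shares of all genes called in these clusters were 1.45%, 17.1%, 1.13% and 13.0%. After DSS the cluster led by Clec3b and Dcn held 20 to 152 cells a library. The cluster led by Ogn and Rbp4 held 18 to 103, so it fell below the planned minimum of 20 cells a library for a test. Values in these 2 clusters rest on few cells after DSS. Il6st rose by 0.76 and 0.68 in the clusters led by Cxcl13 and Il11 and by Dcn and Lum. In the clusters led by Clec3b and Dcn and by Ogn and Rbp4 its differences were 0.06 (adjusted p = 0.922) and -0.05 (adjusted p = 0.944). Il6ra fell by 0.84 (adjusted p = 0.0358) in the cluster led by Cxcl13 and Il11 and differed by -0.02, 0.28 and -0.62 in the others, none called by edgeR. The 5 plasma cell markers summed to 1993 to 4102 CPM in untreated fibroblast-like libraries and 10377 to 27335 CPM after DSS. The 6 naive or central memory T cell markers summed to 351 to 639 CPM and 196 to 254 CPM, and the 7 ILC2 markers to 82.1 to 127 CPM and 164 to 342 CPM. The ILC2 list includes Il1rl1, which was itself called higher after DSS in these cells (log2 change 3.20, edgeR adjusted p = 0.00106). The 5 B cell markers summed to 70.7 to 97.0 CPM and 109.98 to 126 CPM, and the 5 monocyte markers to 1329 to 1440 CPM and 1492 to 1658 CPM. All markers of these 5 lists were detected in both conditions, and their part in these results was not tested.

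**Figure D3:**
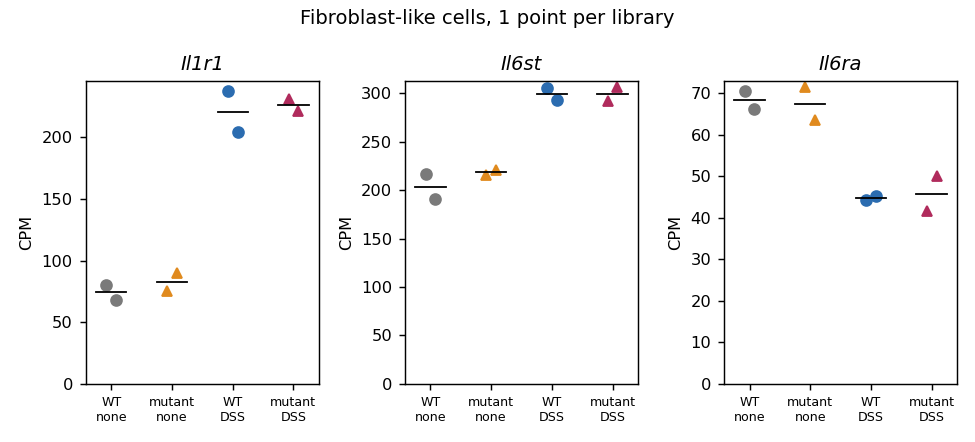
Level of Il1r1, Il6st and Il6ra (vertical axis, CPM) in fibroblast-like cells by group. Each point is 1 library, circles are wildtype, triangles are mutant and lines are group means. For all 3 genes the untreated and DSS libraries do not overlap.

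In wildtype mice alone, with 2 libraries against 2, DSS gave no member called in CD4 T cells (0.19% of genes called), Th17-like cells (0.0411%) or Treg-like cells (0.456%) by edgeR. Il6st in CD4 T cells differed by 0.80 (SE 0.19, adjusted p = 0.0956) and Il1r1 in Treg-like cells by 1.09 (SE 0.31, adjusted p = 0.123). DESeq2 called Il6st in CD4 T cells, against 2.24% of genes with an adjusted p. With no filter on low counts edgeR called Il6st and Il1r1 in CD4 T cells, against 4.39% of genes, and Il1r1 in Treg-like cells, against 1.38%. The log2 difference of Il1r1 in CD4 T cells was 0.47 either way, with SE 0.15 without the filter and 0.43 with it. With the filter, for no member in the 7 populations was the effect of DSS called as different between genotypes (edgeR interaction, lowest adjusted p 0.986, in endothelial-like cells). In each of these populations 0.0% of all genes were called in that comparison.

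In endothelial-like cells, a population added after the data were seen, Il1r1 rose from 49.95 CPM ± 4.71 to 81.6 CPM ± 5.84 (log2 change 0.71, edgeR adjusted p = 0.0202), the 1 member called of 3 tested, against 4.03% of genes. DESeq2 was not run on this population. The 6 naive or central memory T cell markers, all detected, summed to 1538 to 2439 CPM untreated and 892 to 1255 CPM after DSS in these libraries. The 5 smooth muscle or pericyte markers, all detected, summed to 1983 to 2536 CPM and 2452 to 4245 CPM, and the 5 plasma cell markers, all detected, to 229.6 to 3387 CPM and 399.9 to 5146 CPM. The 5 markers of proliferating cells, all detected, summed to 61.5 to 97.7 CPM and 103 to 178 CPM, and the 5 B cell markers, all detected, to 458 to 531 CPM and 412 to 454 CPM. Their part in the result was not tested. In macrophage-like cells Il6ra differed by -0.45 (SE 0.15, edgeR adjusted p = 0.0582), and no member was called of 5 tested, against 20.2% of genes. In ILC3-like cells the 3 members tested differed by -0.02 to 0.07 with adjusted p of at least 0.966, against 1.49% of genes called. No cluster was named as gamma-delta T cells, so none was tested.

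**Figure D4:**
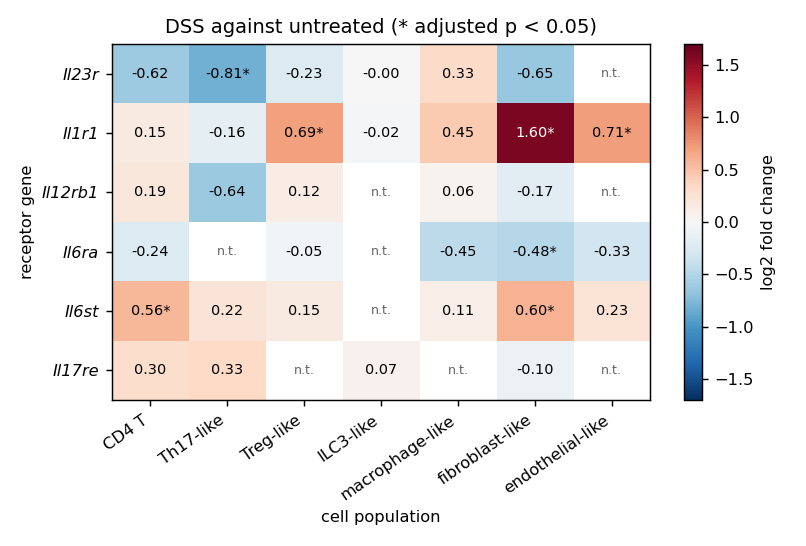
Log2 fold change of each receptor (rows) after DSS against untreated, averaged over both genotypes, in 7 cell populations (columns). A star marks edgeR adjusted p under 0.05 and n.t. marks genes too low to be tested. Il1r1 is raised most in fibroblast-like cells (1.60) and Il23r is lowered in Th17-like cells (-0.81).

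Other genes of these pathways were counted from lists of ligands, receptors and signalling genes, chosen with earlier results of these data known. In fibroblast-like cells the 8 other genes of the IL-6 family were all called, 7 higher and 1 lower after DSS, with a median log2 change of 1.63 against 0.01 for all genes, where 16.7% of all genes were called. The pathway genes are given for all fibroblast-like cells together and not within their 4 clusters. Il11 was a leading gene of the cluster that held 6.10% of these cells untreated and 52.5% after DSS. The part of this mix in the pathway results was not tested. Il6 rose from 36.8 CPM ± 7.36 to 209 CPM ± 34.1 (log2 change 2.58, edgeR adjusted p = 4.5e-05), and Lif by 4.10. Il11ra1, the receptor of IL-11, fell by 1.003. Of the 9 other genes of the IL-1 system 4 rose there and none fell, among them Il1rap, the partner chain of Il1r1 (0.95, edgeR adjusted p = 0.00747), and Il1r2, a decoy receptor (1.03). Osm of the IL-6 family (1.21) and Il1rn of the IL-1 system (0.63) rose in fibroblast-like cells. Both were also called higher in CD4 T cells (1.02 and 1.55) and macrophage-like cells (0.58 and 0.69). The part of RNA from other cells in these results was not tested. Of the 6 genes of the IL-17 system tested, Il17ra, a shared IL-17 receptor chain, rose by 0.78 and Il17rd fell by 1.17. Of 12 signalling genes Irak1, a kinase of the IL-1 receptor pathway, rose by 0.50, and Socs1, an inhibitor of cytokine signalling, fell by 0.57. None of 4 genes of the IL-12 and IL-23 system or of 8 Th17 factors and products was called. Over all lists 13 of 47 genes tested rose and 3 fell. Il6 and Il11 also rose in endothelial-like cells, by 2.16 and 1.81. The part of RNA from fibroblast-like cells in this was not tested. Of all pathway genes tested in endothelial-like cells 3 of 38 rose and 1 fell, against 4.03% of all genes. In macrophage-like cells 9 of 42 rose and 2 fell, against 20.2%, and in ILC3-like cells 1 of 26 rose, against 1.49%.

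In Th17-like cells 2 of 31 pathway genes tested rose after DSS, Il18r1 (log2 change 0.52) and Il1b (1.25), and none fell, against 4.48% of all genes. Il1b, a myeloid cytokine gene, stood at 14.4 CPM ± 6.13 untreated and 36.2 CPM ± 18.0 after DSS (n = 4 each). In these libraries the 7 macrophage markers, all detected, summed to 37.0 to 78.4 CPM (median 56.6) and 67.1 to 192 CPM (median 97.2). The 5 neutrophil markers summed to 0 to 3.27 CPM (median 1.61) untreated, with Cxcr2 and Retnlg at 0, and 1.18 to 16.2 CPM (median 6.40) after DSS. Their part in the result was not tested. In Treg-like cells 3 of 35 rose, Il1r2 (0.52), the kinase gene Tyk2 (0.9996) and the chemokine receptor gene Ccr6 (0.99), against 9.44% of all genes. In CD4 T cells 7 of 43 rose and 3 fell, against 18.2%. Il21, a Th17 and follicular helper cytokine, was among those that fell (by 0.79, edgeR adjusted p = 0.00827).

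No member was called between mutant and wildtype by edgeR with the filter on low counts, or by DESeq2, in CD4 T cells, Th17-like cells or Treg-like cells, whether untreated, after DSS or averaged. With no filter 1 was called, Il1r1 in CD4 T cells of untreated mice (log2 difference 0.71, SE 0.15, edgeR adjusted p = 0.000901), against 0.753% of 19129 genes. With the filter the same difference was 0.72 (SE 0.43, adjusted p = 0.947). Its untreated libraries had 37.7 and 51.4 CPM in wildtype and 50.3 and 95.7 CPM in the mutant, and the ranges overlapped. Th17-like cells made up 8.49% and 14.3% of CD4 T cells in these wildtype libraries and 9.39% and 27.2% in the mutant ones. The part of this share in the result was not tested. The genes called were 3 of 7307 (0.0411%) in untreated Th17-like cells and 0 in the other 8 comparisons by edgeR, where 168 to 571 genes had an unadjusted p under 0.05 and DESeq2 called 0 to 20 (at most 0.136%). In untreated mice Il1r1 differed by 0.73 (SE 0.26, edgeR adjusted p = 0.769) and Il6st by -0.79 (SE 0.32, adjusted p = 0.932) in Th17-like cells, mutant minus wildtype. After DSS Il12rb1 differed by -0.85 (SE 0.34, adjusted p = 0.9997). The same cell type outside the list gave opposite signs for Il6st (0.18) and Il12rb1 (1.01). Averaged over untreated and DSS, Il6st differed by -0.57 (SE 0.22, unadjusted p = 0.0167, adjusted p = 0.9999 by edgeR) in listed Th17-like cells. In Treg-like cells Il1r1 differed by 0.77 (SE 0.36, adjusted p = 0.993) in untreated mice, and by -0.07 without the second mutant library.

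In CD4 T cells Il6ra was at 9.27 and 13.5 CPM in wildtype and 20.2 and 16.5 CPM in mutant untreated libraries, and at 14.7 and 18.3 CPM in wildtype and 9.49 and 10.8 CPM in mutant DSS libraries. Mutant libraries were above wildtype ones before DSS and below them after. The differences were 0.68 (SE 0.22) and -0.70 (SE 0.21) and neither passed adjustment (edgeR adjusted p = 0.763 and 0.9998). The difference of the DSS effect between genotypes was -1.38 (SE 0.30, unadjusted p = 0.000916, edgeR adjusted p = 0.999). With no filter on low counts it was -1.37 and was called (edgeR adjusted p = 0.00424), against 0.371% of genes, while DESeq2 gave an adjusted p of 0.942, with 0.0% of genes called. The Hbb-bs-led cluster, where Il6ra was highest among listed CD4 T cells, made up 13.4% ± 3.14 and 22.4% ± 3.61 of CD4 T cells in wildtype and mutant untreated libraries and 14.5% ± 0.652 and 11.3% ± 0.0313 after DSS (SD, n = 2 each). An unnamed cluster led by Svs5 and Hspa1a made up 1.43% ± 1.17 and 8.36% ± 4.72 untreated, wildtype before mutant. After DSS it made up 0.831% ± 0.537 and 0.605% ± 0.0486. The part of these shares in the result was not tested.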

How the data were processed

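Droplet 3' single-cell libraries from 8 samples were used. The authors deposited tables of raw UMI counts per gene and barcode, and a list of the cells they kept. Cell Ranger 3.1.0, Seurat 4.0.1 and the build mm10 are named in the submitters' processing notes. Row order was checked: of 30934 identifiers found in a reference table, 30468 had the symbol of their row. Barcodes with at least 400 genes and under 20% mitochondrial UMIs were kept. Listed and other barcodes were clustered apart in scanpy 1.11.5 (counts scaled to 10000 per cell, 2000 variable genes without the members, effector, immunoglobulin, T cell receptor, haemoglobin and sex-linked genes, 30 principal components, 15 neighbours, Leiden resolution 1). After the clusters were seen, those with at least 3 stress, seminal or haemoglobin genes among their 10 leading genes were left unnamed.

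UMI counts were summed per library and population and tested with edgeR 4.0.16 (TMM scaling, filterByExpr, quasi-likelihood, 4 group means over all 8 libraries, Benjamini-Hochberg adjustment, threshold 0.05). A standard error is the absolute log2 change divided by the square root of F. DESeq2 1.42.0 was an alternative, with no filter, other libraries, resolution 0.5 and each library left out. The edgeR script was tested on simulated data. In the main edgeR fits, p-values measure the spread between the 2 libraries of a group, pooled over groups and drawn towards that of other genes. With no filter on low counts, the p-values of the members called were those of a normal distribution. Calls with no filter therefore do not rest on a gene's own spread between libraries.

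All 6 members are described. Test statistics of single members are given where the unadjusted p was under 0.05, and otherwise as ranges or for comparison. The members, gene lists and rules were chosen with earlier results of these data known. Some of the other pathway genes called are named, and the rest are counted. Some of the genes with a profile close to a member's are not reported here. Depth limits low genes: the Th17-like cells of a library held 431919 to 2024482 UMIs.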

Additional observations from a re-analysis of the deposited data

How the results depend on the processing

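The titles hold animal numbers, and the labels do not say whether any of them mark paired mice, so the basis of a paired fit is uncertain. With neighbouring animal numbers taken as a replicate block, 0 members were called in each mutant comparison, as without it. Genes called in untreated mice went from 0, 3 and 0 to 20, 10 and 6 in CD4 T, Th17-like and Treg-like cells. Each block lay within a single treatment, so the DSS comparisons could not be fitted with it.

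Percentages here are the share of all genes called at that setting (with DESeq2, of genes with an adjusted p). Counts of members called for DSS averaged over both genotypes were 1 in CD4 T cells (2 with no filter on low counts, Il6st and Il23r, 14.1%, and 0 without Treg-like cells, 11.9%). They were 1 in Th17-like cells (0 with DESeq2, 5.04%, where Il23r had no adjusted p, 0 at resolution 0.5, 4.82%, and 2 outside the list, 12.1%). In Treg-like cells they were 1 (0 with DESeq2, 5.88%, 2 outside the list, 15.4%, and 0 in the cluster led by Il1rl1, 2.44%). In fibroblast-like cells they were 3 (2 with DESeq2, 10.7%, 2 in the cluster led by Dcn and Lum, 13.0%, and 1 in the clusters led by Clec3b and Dcn, 1.45%, and by Ogn and Rbp4, 1.13%). In macrophage-like cells 1 was called with no filter (13.5%). For DSS in wildtype alone the count was 0 in CD4 T cells (1 with DESeq2, 2.24%, and 2 with no filter, 4.39%) and 0 in Treg-like cells (1 with no filter, 1.38%, with only the compared libraries, 0.42%, or outside the list, 0.667%). For the mutant in untreated CD4 T cells 1 was called with no filter, Il1r1 (0.753%), and for the genotype difference of the DSS effect in CD4 T cells 1, Il6ra (0.371%), against 0 with the filter. The members called for DSS could change when a library was left out. Without the second mutant DSS library it was Il17re (log2 change 0.64) and not Il6st in CD4 T cells. Without the first, Il23r (-2.12) was added in fibroblast-like cells. Leaving out libraries gave 0 to 1 in the T cell counts for DSS (0 throughout in wildtype Th17-like cells), 1 to 4 in fibroblast-like cells and 0 to 2 in macrophage-like cells. The shares of all genes then ranged, averaged over genotypes, from 1.6% to 17.7% in CD4 T, 0.759% to 5.82% in Th17-like, 2.0% to 12.6% in Treg-like, 4.09% to 24.5% in fibroblast-like and 4.97% to 21.2% in macrophage-like cells. In wildtype alone they were at most 0.979% in CD4 T, 0.367% in Th17-like and 1.73% in Treg-like cells.

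Sign changes were few among the member comparisons with an unadjusted edgeR p under 0.05 in the main fit. Those of other comparisons are not listed here. Outside the list, Th17-like cells gave 0.18 and 0.11 for Il6st (mutant, untreated and averaged) and 1.01 for Il12rb1 (mutant after DSS). Il1r1 in Treg-like cells gave -0.058 in the cluster led by Il1rl1, and -0.073 to 1.34 for the untreated mutant over the libraries left out, the lowest without the second mutant library. The genotype difference of the DSS effect on Il23r in Th17-like cells gave -1.54 to 0.31 over the libraries left out, the highest without the first wildtype DSS library. In the fibroblast-like cluster led by Ogn and Rbp4, Il6ra gave 0.28 and Il6st -0.046.

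For the Il17a split, no thinning gave log2 differences of 0.54 for Il23r, 0.65 for Il1r1, 0.57 for Il17re and 0.25 for Il12rb1, and thinning to 500 UMIs gave 1.57 for Il1r1. Leaving out libraries gave -0.063 to 0.63 for Il23r and -0.45 to 0.17 for Il6ra. Without thinning the shares of cells with a UMI were 12.0% (Il23r), 29.1% (Il1r1) and 8.69% (Il17re) in Th17-like cells, 9.41% (Il12rb1) and 34.4% (Il6st) in Treg-like cells and 7.93% (Il6ra) in Tfh-like cells outside the list. The cause of these changes was not tested.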
